A study of Mus musculus with 18 samples.

Results

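Apolipoproteins are the protein coats of the particles that carry lipid in blood, and the genes described here are 9 apolipoprotein genes, Apob, Apoa1, Apoa2, Apoa4, Apoa5, Apoc1, Apoc2, Apoc3 and Apoe, together with Mttp, whose protein loads lipid onto apolipoprotein B. They were taken as the rows of the deposited expression table that carry these symbols, 10 of 18946 genes. RNA was sequenced from livers of male C57BL/6J mice, an inbred laboratory strain, in 10 Old animals of 19.76 months and 8 Young animals of 6.18 months, as labelled. After a fast, all mice in both groups had been through a hyperinsulinemic-euglycemic clamp, an infusion of insulin with enough glucose to hold blood glucose level, so no liver without insulin infusion was compared. RNA had been extracted with the AllPrep kit in 5 Old and 3 Young mice and with the RNeasy kit in 5 Old and 5 Young mice. The comparison asks whether the liver of old mice makes different amounts of the transcripts for lipoprotein particles under insulin.

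The liver packs triglyceride and cholesterol into very low density lipoprotein around a single large protein, apolipoprotein B, and cannot do so without the transfer protein encoded by Mttp. Apolipoproteins A1 and A2 form the coat of high density lipoprotein. The small C apolipoproteins and apolipoproteins E and A5 sit on the surface of particles and steer how fast lipoprotein lipase empties them and how fast receptors in the liver take them up. Apolipoprotein A4 is made mostly in the intestine, and in mouse liver its transcript is known to follow fasting and fat load.

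Recovered reads over the listed genes ran between 85790735 and 127487820 per library. After age and kit were fitted, the root mean square residual of Old replicate 14 was 0.629 on the log2 scale, against 0.194 to 0.324 in the other libraries, so this library stood apart. The liver label was checked against markers of its main cell type: 15 of 15 hepatocyte markers were in the table, and their summed scaled TPM was 130690 to 210192 in Old and 116616 to 172893 in Young livers, led by albumin. The summed macrophage and Kupffer cell list (15 of 15 genes) ran between 492 and 1498 in Old and between 480 and 999 scaled TPM in Young livers. The sums overlapped between ages, and their part in the results below was not tested. In bulk liver RNA, fewer cells of a type and less RNA per cell cannot be told apart.

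The upstream sequences of Apoa4 and Apoa5 are shown because these neighbours in the gene cluster on chromosome 9 gave the widest spread and the smallest p among the members. They are RefSeq sequences of GRCm38.p6, the 250 bases before each start on the plus strand, at chr9:46240594-46240843 and chr9:46268358-46268607, and the starts lie 27764 bases apart. Capitals mark matches, on either strand, to 4 searched motifs: TGNNCTTTG, a core found in sites of hepatocyte nuclear factors of the HNF4 type, TATAAA, the E-box CACGTG and TGACGT.
Apoa4: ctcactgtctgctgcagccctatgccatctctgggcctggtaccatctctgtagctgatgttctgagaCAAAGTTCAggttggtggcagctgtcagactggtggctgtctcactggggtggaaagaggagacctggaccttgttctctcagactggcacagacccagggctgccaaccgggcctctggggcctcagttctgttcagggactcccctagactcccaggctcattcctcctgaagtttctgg
Apoa5: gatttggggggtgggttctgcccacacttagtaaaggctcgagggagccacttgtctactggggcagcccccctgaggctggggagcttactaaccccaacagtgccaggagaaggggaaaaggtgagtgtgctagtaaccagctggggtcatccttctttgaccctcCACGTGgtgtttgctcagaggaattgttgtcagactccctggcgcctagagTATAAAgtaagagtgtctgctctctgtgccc
The Apoa4 window held a match to TGNNCTTTG on the minus strand and none to TATAAA, whereas the Apoa5 window held CACGTG and TATAAA, and no matches overlapped. Of 8 members with a sequence in the RefSeq table, TGNNCTTTG was in 2 (Apoa4 and Apob), TATAAA in 4, CACGTG in 1 and TGACGT in 1. Among 32851 windows of the same length the shares with a match were 5.49%, 12.4%, 6.02% and 6.47% in that order of motifs. These shares are per window, whereas a member was counted if any of its windows matched. The 8 members had 12 windows, with several windows in 3 members, so the counts and shares are not in the same unit. A match is a run of letters and not a measured binding site.

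The 10 transcripts made up 5.79% ± 0.631 of all TPM in Old livers and 5.55% ± 0.403 in Young livers (SD, n = 10 and n = 8). Old replicate 14 had the highest share, 7.18%, with Apoa4 at 16663 TPM there, and the medians were 5.85% in Old and 5.39% in Young livers. TPM counts reads per length of transcript, scaled to the same total in every library, so levels can be set against each other between genes. Ranked by mean TPM over the 18 libraries, Apoa1 was 4th of all listed genes, Apoe 5th, Apoc1 10th, Apoa2 13th, Apob 44th, Apoc3 62nd, Apoa4 75th, Apoa5 123rd and Mttp 416th. Apoc2, the activator of lipoprotein lipase, stood far below the others at rank 6181. It shares 79.5% of its exon bases with another annotated gene on the same strand. The level of Apoc2 therefore depends on how shared reads were counted, which is not given in the sources used here. That other gene, Gm44805, was itself low, at a mean of 0.983 TPM (0.515 to 1.47). Apoe lay above Apoc1, Apoc1 above Apoa2 and Apoa2 above Apob in 18 of 18 libraries. Apoa1 lay above Apoe in 15 and Apob above Apoc3 in 17 of 18, whereas Apoa4 lay above Apoa5 in only 10 of 18, so those neighbours had no fixed order.

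With age, none of the 10 members passed the test. In limma with kit as a term, 4.91% of the 13895 tested genes had an adjusted p under 0.05, 2.44% higher and 2.47% lower in Old. Of 10 members 0 did. At an unadjusted p under 0.05 only Apoa5 of the 10 members passed, against 3254 of the 13895 tested genes, which is a larger share. The share of all tested genes called was 0.783% within the AllPrep and 0.0819% within the RNeasy libraries, 6.99% without Old replicate 14 and 3.09% without Young replicate 1 and Old replicate 5, with 0 members called in each of these fits. All 10 members were among the tested genes, which needed at least 0.5 TPM in at least 8 libraries. The median log2 fold of the members was -0.04 and that of all tested genes 0.00. In each of the 10 members the Old and Young ranges overlapped, and ranges that do not overlap were rare among tested genes at 0.417%. The levels below are scaled TPM, TPM divided by a factor per library, and log2 folds are on the scale of log2(scaled TPM + 0.5), Old minus Young.

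**Figure D1:**
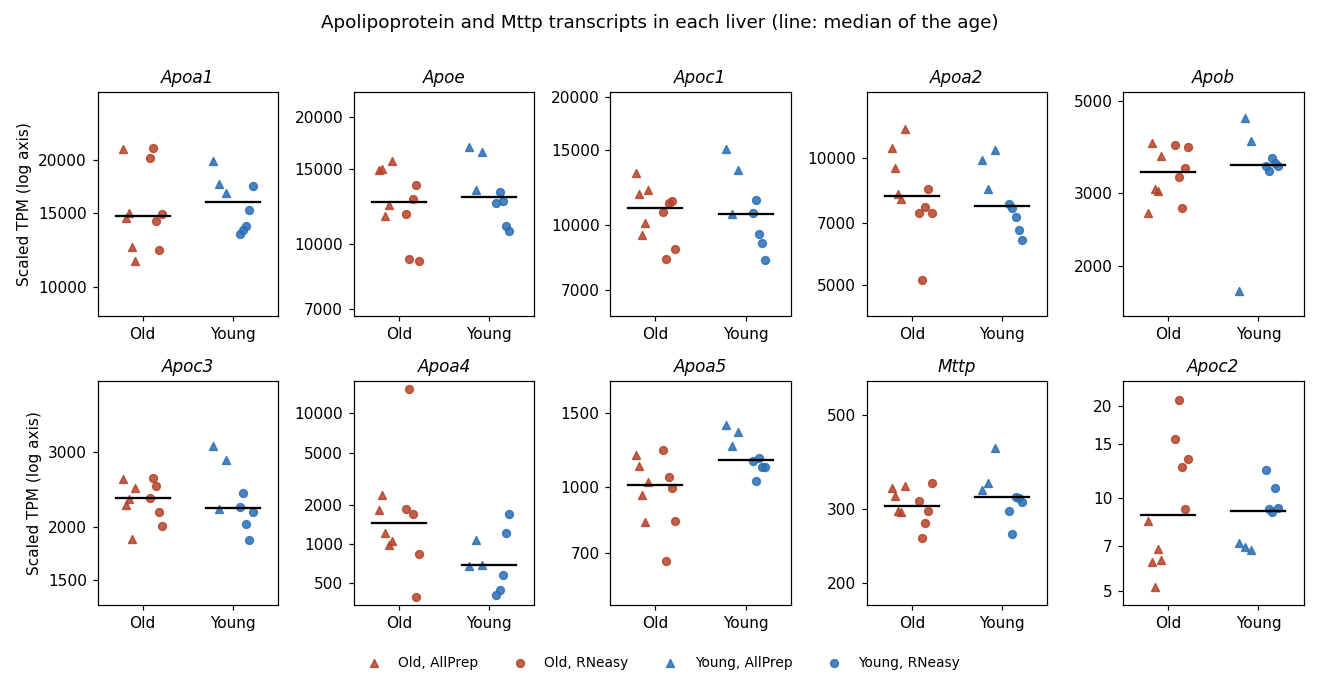
Scaled TPM (log axis, a separate range for each gene) of the 10 members in each library, Old left and Young right, with triangles for the AllPrep and circles for the RNeasy kit and a line at the median of each age. Old and Young overlap in every panel, Apoa4 has 1 Old library at 15359.5, and in Apoc2 the triangles lie below all circles.

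Apob, the structural protein of very low density lipoprotein, had a lowest level of 2683, a median of 3358 and a highest level of 3961 scaled TPM in Old livers, and 1739, 3508 and 4551 in Young livers. The Old values lay inside the Young range, and the log2 fold was -0.00 ± 0.15 (SE; 95% interval -0.32 to 0.32; adjusted p = 0.997). Mttp, the transfer protein that lipidates it, ran between 255 and 345 with a median of 304 scaled TPM in Old livers, and between 261 and 417 with a median of 319 in Young livers. Its log2 fold was -0.10 ± 0.07 (SE; interval -0.25 to 0.06; adjusted p = 0.439). Mttp was also among the steadier transcripts between mice: its residual SD of 0.14 on the log2 scale was at the 21.0th percentile of tested genes.

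The low value of Apob in Young replicate 1 went with a low level of genes with many exon bases in that library. Exon bases were merged over all annotated transcripts of a gene, so they can exceed the length of any 1 transcript. Apob has 13934 bases of exon in the GENCODE annotation of GRCm38, against 2522 at most in the other apolipoproteins here, and 730 of the genes with a mean of at least 5 scaled TPM had over 10000 exon bases. The median log2 deviation of these long genes, minus that of 2467 genes of 2000 to 4000 bases, was -0.43 in Young replicate 1 and -0.21 in Old replicate 5, and between -0.03 and 0.19 in the other libraries. In Young replicate 1 613 of the 730 long genes lay below their mean over libraries, and in Old replicate 5 605 did. Subtracting the long-gene median lowered the SD of Apob over the 18 libraries to 0.22, against 0.30 as measured, on the log2 scale. Young replicate 1 stayed the lowest after this step, at -0.64, against -0.95 as measured, and the next lowest library was at -0.24. The age difference of Apob was then -0.03, or -0.16 as measured without Young replicate 1, and how far RNA length or its loss set the level of Apob was not tested.

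**Figure D2:**
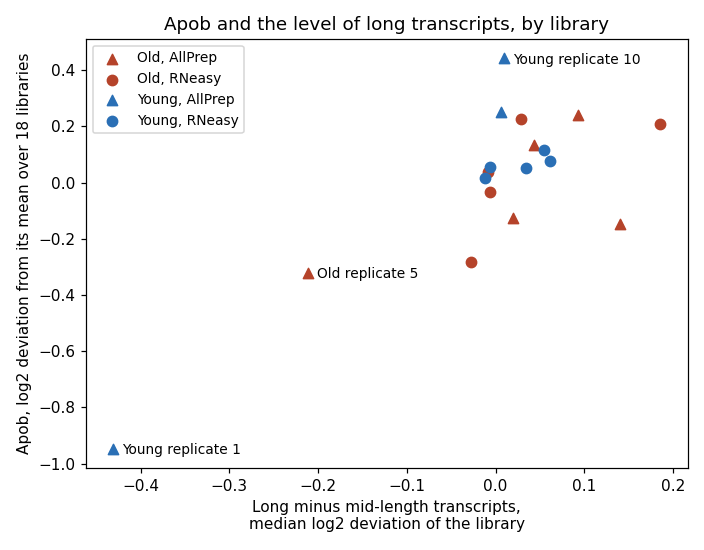
Log2 deviation of Apob from its mean over 18 libraries (y axis), 1 point a library, coloured by age and shaped by kit. The x axis is the difference in median log2 deviation between genes with over 10000 exon bases and genes with 2000 to 4000. Exon bases were merged over all annotated transcripts of a gene and are not the length of a transcript. Young replicate 1 lies lowest on both axes, at -0.43 on the x axis and -0.95 on the y axis.

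The 2 main coat proteins of high density lipoprotein did not pass the test. Apoa1 had a lowest, median and highest level of 11570, 14778 and 21375 scaled TPM in Old livers, and 13391, 15963 and 19942 in Young livers. The Old range enclosed the Young range, with a log2 fold of -0.04 ± 0.17 (SE; interval -0.39 to 0.30; adjusted p = 0.902). Apoa2 had 5130, 8101 and 11709 scaled TPM in Old livers at the same points, and 6387, 7680 and 10402 in Young livers, again with the wider range in Old. Its log2 fold was -0.01 ± 0.12 (SE; interval -0.27 to 0.25; adjusted p = 0.981).

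The remnant ligand Apoe and its neighbour Apoc1, which lie together on chromosome 7 with Apoc2, also overlapped between ages. Apoe averaged 12630 ± 2309 scaled TPM in Old livers and 13373 ± 2272 in Young livers (SD, n = 10 and n = 8), a log2 fold of -0.13 ± 0.13 (SE; adjusted p = 0.576). Apoc1, which hinders uptake and remodelling of particles, averaged 10712 ± 1560 in Old and 11022 ± 2306 scaled TPM in Young livers, a log2 fold of -0.06 ± 0.13 (SE; adjusted p = 0.807). Apoc3, a brake on lipoprotein lipase and on clearance, averaged 2317 ± 248 in Old and 2361 ± 422 scaled TPM in Young livers, a log2 fold of -0.03 ± 0.10 (SE; adjusted p = 0.879). The intervals of these 3 genes ran no lower than -0.41 and no higher than 0.21 on the log2 scale.

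Apoc2 averaged 10.5 ± 5.05 scaled TPM in Old livers and 8.97 ± 1.98 in Young livers (SD, n = 10 and n = 8). It rested on 180 to 947 recovered reads a library. Its log2 fold was 0.21 ± 0.14 (SE; interval -0.07 to 0.50; adjusted p = 0.357). Without Old replicate 14, the highest library at 20.9, the Old mean was 9.32 ± 3.70 (SD, n = 9) and the log2 fold 0.12 (adjusted p = 0.535). In the annotation 79.5% of its exon bases are shared with Gm44805, a gene on the same strand. The count of Apoc2 thus depends on how shared reads were treated, which is not given in the sources used here. Gm44805 had a mean of 0.983 TPM (0.515 to 1.47), and whether shared reads were left out of both genes was not tested.

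Apoa5, which helps lipoprotein lipase act on triglyceride and is made almost wholly in liver, came closest to passing. It had a lowest, median and highest level of 667, 1013 and 1226 scaled TPM in Old livers, and 1033, 1162 and 1400 in Young livers. Of 10 Old livers 8 lay below the Young median, and Old replicate 14 was the lowest of all libraries. The log2 fold was -0.31 ± 0.10 (SE; interval -0.53 to -0.09), with an unadjusted p of 0.00809 and an adjusted p of 0.0890. Without Old replicate 6, the highest Old library, it was -0.37 with an adjusted p of 0.0368, the only library left out that brought a member under 0.05. Without Old replicate 14 it was -0.25 with an adjusted p of 0.0930. Within the AllPrep libraries it was -0.38 and within the RNeasy libraries -0.25, with adjusted p-values of 0.208 and 0.643.

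**Figure D3:**
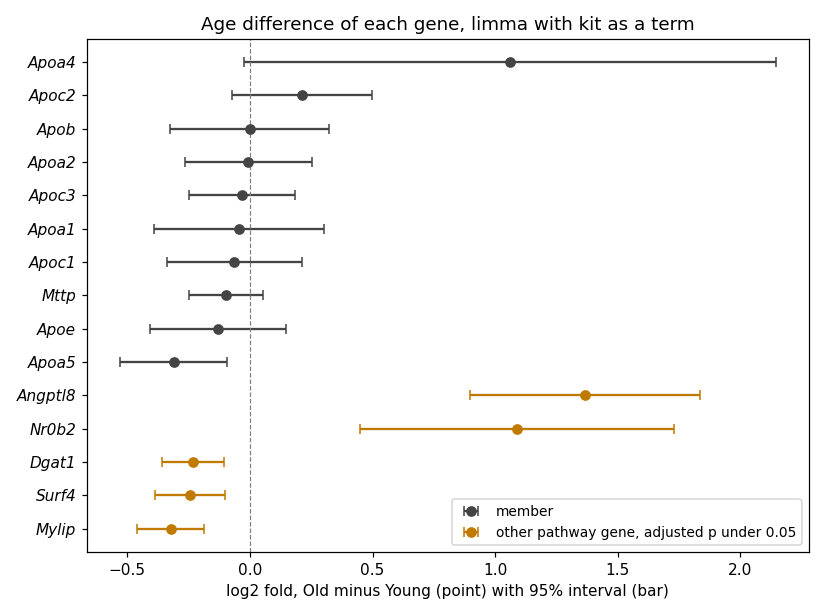
Log2 fold, Old minus Young, from limma with kit as a term (points) and its 95% interval (bars) for the 10 members and for 5 other genes of lipoprotein metabolism with an adjusted p under 0.05. Apoa4 has the widest interval, -0.02 to 2.14, and among the members only that of Apoa5, -0.53 to -0.09, leaves out 0 before adjustment.

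Apoa4 varied most of the members. It had a lowest, median and highest level of 387, 1449 and 15359.5 scaled TPM in Old livers, and 407, 681 and 1696 in Young livers. The highest value was Old replicate 14 and the next highest Old library had 2369, while 9 of 10 Old livers lay above the Young median and Old replicate 16 was the lowest of all libraries. The log2 fold was 1.06 ± 0.52 (SE; interval -0.02 to 2.14; adjusted p = 0.223). Without Old replicate 14 the Old mean was 1355 ± 617 against 845 ± 445 scaled TPM in Young (SD, n = 9 and n = 8), and the log2 fold was 0.62 (adjusted p = 0.273). Within the AllPrep libraries it was 0.83 and within the RNeasy libraries 1.24, or 0.44 in RNeasy without Old replicate 14, with adjusted p-values of 0.200, 0.694 and 0.814.

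The residual SD of Apoa4 after age and kit was 1.17 on the log2 scale, at the 99.6th percentile of tested genes, and 0.77 at the 98.6th percentile without Old replicate 14. In Old replicate 14 the hepatocyte list, at 210192, and the list of lipid-associated macrophage markers (10 of 10 genes), at 1660 scaled TPM, were the highest of the Old libraries, and the second list had a median of 626 in Old and 552 in Young. The cholangiocyte list (7 of 8 genes, led by Spp1) summed to 204 in Old replicate 14, against a median of 32.2 in Old and a highest value of 65.7 in Young livers. The B and plasma cell list (7 of 8) was at 37.1 there, against a median of 12.0 in Old and a highest value of 10.7 in Young livers. The endothelial list (12 of 12) was at 291 in Old replicate 14, against a median of 245 in Old, and Young replicate 1 also reached 291. Macrophage and Kupffer cell, stellate cell and fibroblast, T and NK cell and neutrophil lists lay inside the Old range there, at 1266, 315, 8.86 and 28.3. Their highest Old values were 1498, 375, 25.2 and 89.6 scaled TPM. Spp1 is in both the cholangiocyte and the lipid-associated macrophage list. The enterocyte list, of which 3 of 6 genes were analysed, summed to 161 to 294 in Old and 193 to 263 scaled TPM in Young livers, with 254 in Old replicate 14, nearly all of it Fabp2. Of its other genes, the sugar transporter Slc5a1 had 7.38 scaled TPM in Old replicate 14, against 0.295 to 1.02 in the other Old livers and 0.328 to 0.921 in Young livers. Vil1, a protein of the brush border, had 0.534 there, against 0.0351 to 0.264 in the other Old livers. The part of other cells in the Apoa4 value was not tested. Apoa4 shares 34.9% and 34.8% of its exon bases with 2 annotated genes on the opposite strand, and the strand setting of the counting is not given in the sources used here.

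Several members lay at an end of their range in Old replicate 14, in opposite directions. Apoa4, Apoa1 and Apoc2 were there the highest of all libraries, at 15359.5, 21375 and 20.9 scaled TPM, and Apoc3 at 2616 was the highest Old value. By contrast, Apoa5 at 667, Apoa2 at 5130 and Mttp at 255 were the lowest of all libraries, and Apoc1 at 8287 was the lowest Old value. Apob at 3273 and Apoe at 9214 lay inside their Old ranges. Without this library the log2 folds with age of Apoa1 and Apoa2 were -0.11 and 0.06, and neither passed the test (adjusted p = 0.676 and 0.760). Over the Old livers the log2 levels of Apoa4 and Apoa5 had a Pearson r of -0.37 and a Spearman rho of 0.31 (permutation p = 0.279 and 0.387, n = 10). Without Old replicate 14 r was 0.58, and without the 2 libraries farthest from the median of Apoa4 it was 0.86, so the negative sign rested on 1 library. In Young livers r was 0.02 (exact permutation p = 0.969, n = 8) and 0.61 without the 2 farthest (n = 6). Without a scaling factor the r without the 2 farthest in Young livers was -0.10.

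**Figure D4:**
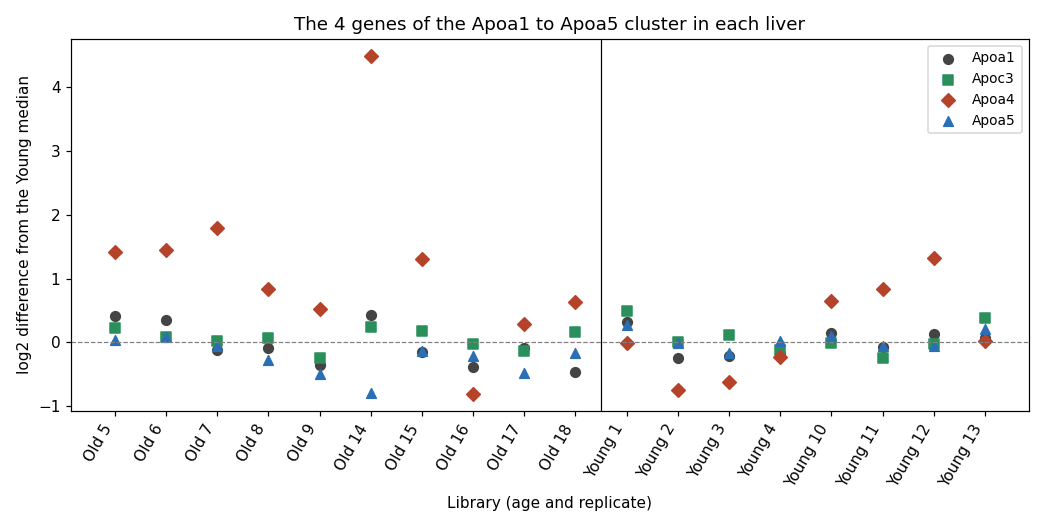
Log2 difference of Apoa1, Apoc3, Apoa4 and Apoa5 from the median of the Young libraries (y axis) in each of the 18 libraries (x axis), Old left of the vertical line and Young right. Apoa1, Apoc3 and Apoa5 stay within about 1 log2 unit in all libraries, and Apoa4 in Old replicate 14 lies far above the rest.

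Of 6 pairs of members, Apoe with Apoc1 alone was called, in both ages. In Old livers the 2 log2 levels had a Pearson r of 0.94 and a Spearman rho of 0.94 (permutation p = 7e-05 and 0.00025, n = 10; adjusted p = 0.00084 and 0.003 over 12 correlations). In Young livers r was 0.97 and rho 0.88 (exact permutation p = 0.000198 and 0.00724, n = 8; adjusted p = 0.00119 and 0.0435). Without the 2 libraries farthest from the median r was 0.86 in Old and 0.94 in Young livers. The other 10 correlations, of Apoa1 with Apoc3 or Apoa2, Apob with Mttp, Apoc2 with Apoc1 and Apoa4 with Apoa5, had adjusted p-values of 0.34 or more for r. Apob and Mttp in Young livers had an r of 0.13 with all 8 libraries and 0.97 without the 2 farthest, which took out Young replicate 1. That value rests on 6 libraries and has no p-value, and without a scaling factor the r without the 2 farthest was 0.63. The kits hold 3 to 5 libraries within an age, too few for a correlation within a kit. With age and kit subtracted, r of Apoe with Apoc1 over the 18 libraries was 0.90, or 0.89 without Old replicate 14, given as a description. High values were not particular to these neighbours. Apoa2, on chromosome 1, had an r of 0.81 with Apoe and 0.77 with Apoc1 (0.80 and 0.79 without Old replicate 14). Apoc1 had 0.60 with Apoc3 of chromosome 9 (0.79 without it). These pairs were not among the 6, and of all 45 pairs 18 had a negative r.

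After age and kit were subtracted, 10 of 45 pairs of members had an r above 0.5 over the 18 libraries, or 12 without Old replicate 14, and 18 pairs had a negative r, or 14 without it. The share among all pairs of tested genes was not computed, so these counts cannot tell the members from other genes. For each member, the 2 other genes with the highest r of these residuals were read off the whole table, as a description of 18 libraries that share scaling and depth. Apob was most like F5, coagulation factor V (r = 0.97, and 0.97 without Old replicate 14), and Mfsd4a (0.94 and 0.94). The log2 deviation of Apob was -0.03 in Old replicate 14 and -0.95 in Young replicate 1. Leaving out Old replicate 14 therefore says little about these 2 matches, and r without Young replicate 1 was not computed. Mttp was most like Plekha8 (0.93 and 0.94) and Zfp623 (0.89 and 0.88). Apoe was most like Ndufv1, a subunit of respiratory complex I (0.96 and 0.95), and Akr7a5 (0.94 and 0.94), and Apoc1 was most like Cox7c (0.93 and 0.92) and Ndufb9 (0.92 and 0.91), subunits of the respiratory chain. For Apoa1 the closest were Adsl (0.89 and 0.86) and Golt1a (0.87 and 0.88), and for Apoa2 Ecsit (0.92 and 0.86) and Tmem183a (0.91 and 0.84). Apoc3 was most like Kptn (0.87 and 0.86) and Lamtor4 (0.85 and 0.84), and Apoc2 most like Ica1 (0.88 and 0.79) and Josd2 (0.83 and 0.80). Apoa5 was closest to Ptges2 (0.94 and 0.90) and Fbxo31 (0.92 and 0.87). For Apoa4 the closest were S100a11 (0.93 and 0.82) and Sox5os4 (0.92 and 0.83), both lower without Old replicate 14.

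Between the extraction kits 2 members passed the test. With age as a term 18.3% of tested genes differed between kits. Summed markers differed in median too: hepatocyte 169959 in AllPrep and 131828 scaled TPM in RNeasy libraries, macrophage and Kupffer cell 978 and 640, and stellate cell and fibroblast (12 of 12 genes) 312 and 228, and their part in the kit differences was not tested. Apoc2 ran between 5.18 and 8.44 with a median of 6.84 scaled TPM in AllPrep libraries, and between 9.05 and 20.9 with a median of 11.6 in RNeasy libraries. The kits' ranges of Apoc2 did not overlap, as was so for 2.39% of tested genes, and the log2 difference, AllPrep minus RNeasy, was -0.80 ± 0.14 (SE; adjusted p = 0.000411). It was -1.05 within Old livers and -0.51 within Young livers (adjusted p = 0.0209 and 0.0351) and -0.71 without Old replicate 14. Apoa2 had a median of 9661 scaled TPM in AllPrep libraries and 7377 in RNeasy libraries, a log2 difference of 0.42 ± 0.12 (SE; adjusted p = 0.0235), which lost its call without Old replicate 18 or without Young replicate 13 (adjusted p = 0.0512 and 0.0571) and within either age alone. Without a scaling factor the kit difference of all genes had a median of -0.11, against 0.01 with it, and that of Apoa2 was 0.28 (adjusted p = 0.0954). Apoe was 0.34 higher in AllPrep without passing the test (adjusted p = 0.0836). No gene passed the test of a different age effect in the 2 kits, with 587 of 13895 tested at an unadjusted p under 0.05. Apoc2 came nearest among the members, at -0.53 (p = 0.0509, adjusted p = 0.975), with an age difference of -0.09 in AllPrep and 0.44 in RNeasy libraries.

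Around the members, 90 genes of lipoprotein metabolism were read in 7 lists, of which 87 were tested. With age 2 of them were higher and 3 lower in Old livers, which is 5 of 87, near the 4.91% of all genes. Among 19 genes of particle assembly and secretion 0 were higher and 2 lower, with a median log2 fold of -0.05. Surf4, the cargo receptor that carries lipoproteins out of the endoplasmic reticulum, averaged 161 ± 17.1 in Old and 189 ± 21.4 scaled TPM in Young livers, a log2 fold of -0.24 ± 0.07 (SE; adjusted p = 0.0452). Dgat1, which makes triglyceride, averaged 13.7 ± 1.54 in Old and 16.4 ± 1.24 in Young livers, a log2 fold of -0.23 ± 0.06 (SE; adjusted p = 0.0358). The sorting receptor Sort1, with a log2 fold of -0.68 (adjusted p = 0.0741), and Sec24d of the secretory coat, with -0.18 (adjusted p = 0.143), did not pass, although Sort1 had an adjusted p of 0.0103 without Old replicate 14. Leaving out 1 library ended the call of Surf4 in 13 of 18 cases, all but Old replicates 5, 6, 14 and 16 and Young replicate 4 (adjusted p up to 0.108), and that of Dgat1 in 10 of 18, with Old replicates 7, 8, 9 and 15 and Young replicates 1, 2, 4, 10, 11 and 13 (up to 0.0655). Surf4 also lost its call with limma-voom, without a kit term and without scaling (adjusted p = 0.0551, 0.109 and 0.0586), and Dgat1 without scaling (0.0841).

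Angptl8, the hormone-like protein that controls lipoprotein lipase and is known to be raised by feeding and insulin, rose most of the 5. It had a lowest, median and highest level of 42.2, 80.6 and 148 scaled TPM in Old livers, and 12.9, 35.3 and 51.7 in Young livers. The 10 Old livers all lay above the Young median, and the log2 fold was 1.37 ± 0.22 (SE; adjusted p = 0.00365). It held without each library in turn (adjusted p 0.00273 to 0.00936), and within the kits it was 1.20 in AllPrep and 1.4995 in RNeasy libraries with adjusted p-values of 0.142 and 0.0749. Lpl itself had 124 scaled TPM in Old replicate 14, against 6.58 to 28.8 in the other Old livers and 7.66 to 15.0 in Young livers. Its log2 fold was 0.72 (adjusted p = 0.302), or 0.33 without Old replicate 14 (adjusted p = 0.365), and did not pass. Of 9 genes in the lipase list, 1 was higher and 0 lower.

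Mylip, the ubiquitin ligase that marks the low density lipoprotein receptor for breakdown, fell in Old livers. It averaged 7.08 ± 0.477 in Old and 8.95 ± 1.04 scaled TPM in Young livers (SD, n = 10 and n = 8), with all 10 Old livers below the Young median and a log2 fold of -0.32 ± 0.06 (SE; adjusted p = 0.0111). It held without each library in turn (adjusted p 0.00582 to 0.0270), and within the kits it was -0.45 in AllPrep and -0.22 in RNeasy libraries with adjusted p-values of 0.0944 and 0.427. Of 12 tested receptor and clearance genes it was the only one called. Sdc1, a heparan sulfate carrier that binds remnants, had a log2 fold of -0.16 (adjusted p = 0.353).

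Nr0b2, the small heterodimer partner that bile acids induce, averaged 43.6 ± 12.7 in Old and 22.8 ± 15.6 scaled TPM in Young livers, a log2 fold of 1.09 ± 0.30 (SE; adjusted p = 0.0475). Young replicate 3, at 56.5, lay far above the next Young liver, at 30.3, and leaving out 1 library ended the call in 16 of 18 cases, all but Old replicate 6 and Young replicate 3 (adjusted p 0.0107 to 0.108). With library weights its log2 fold was 0.79 (adjusted p = 0.139). It was the only one of 20 tested regulators of apolipoprotein genes that was called. Ppargc1a, a coactivator raised by fasting, had a log2 fold of -0.40 (adjusted p = 0.0689, or 0.0133 without Young replicate 13) and the liver X receptor Nr1h2 one of -0.14 (adjusted p = 0.186). The remaining lists had no calls in either direction: 12 other apolipoproteins, among them Apoc4 at -0.37 (adjusted p = 0.0952) and Apol7a at 0.38 (adjusted p = 0.170), 4 genes of Apob mRNA editing, with Apobec1, the enzyme that edits it, at 0.31 (adjusted p = 0.173) and Rbm47, its cofactor, at 0.11 (adjusted p = 0.639), and 11 genes of high density lipoprotein, with Abcg1 at 0.30 (adjusted p = 0.168) and Pltp at 0.40 (adjusted p = 0.344).

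The members were also set against traits given in the labels, with age and kit as terms. Suppression of glucose production by insulin ran between 25.4% and 68.4% in Old and between 68.4% and 92.0% in Young mice, and body weight at the clamp between 35.1 and 55.0 g in Old and between 26.6 and 34.8 g in Young mice. Of 10 members 0 had a slope with an adjusted p under 0.05 on suppression, weight or clamp glycerol, against 0, 10 (0.0720%) and 0 of 13895 tested genes, with 1267, 2211 and 758 at an unadjusted p under 0.05. The smallest p-values were those of Apoc2 on weight (-0.04 log2 units per g, p = 0.0188, adjusted p = 0.224), Apoa4 on glycerol (p = 0.0436, adjusted p = 0.737) and Apoc2 on suppression (p = 0.0448, adjusted p = 0.545). Without Old replicate 14 the slope of Apoa4 on glycerol had a p of 0.245.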

How the data were processed

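RNA of 18 livers, 10 Old and 8 Young, was sequenced after depletion of ribosomal RNA, per the labels' protocols. The authors deposited TPM values for 18946 genes. STAR 2.7.9a, Subread and featureCounts, and the builds GRCm39 and mm10, are named per the submitters' processing notes without a role for each. Neither annotation nor strand setting is given in the sources used here, which leaves overlapping genes uncertain. Coordinates are given for RefSeq sequences alone. TPM carries no depth, but values of a gene in different libraries stand in ratios of whole numbers. Whole reads, within 2e-08 of an integer, were recovered for all 18946 genes (85790735 to 127487820 per library), and were used for limma-voom as an alternative. At 0 reads up to 3 reads a library are possible.

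TPM values were divided by factors from trimmed means of log ratios (trims of 30% on log ratios and 5% on levels, both ends). The 13895 genes that reached 0.5 TPM in 8 or more libraries were fitted on log2(scaled TPM + 0.5) by limma 3.58.1, run in R 4.3.3 (trended variance, terms for age and kit). Benjamini-Hochberg adjustment ran over all tested genes, with calls under 0.05. The fit and the read recovery were tested on simulated data. A fold on this scale understates changes of low genes. Kit, interaction and trait fits used the same model. Pair correlations have two-sided permutation p-values, exact up to 9 libraries and from 100000 permutations otherwise. The libraries come from separate mice, per the labels. Python 3.11.15 ran the rest, with pandas 2.3.3, numpy 2.4.6, scipy 1.17.1 and, for plots, matplotlib 3.10.9.

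The members, gene lists and tests were chosen with earlier results of these data known. Named are the 10 members, every called gene of a list with up to 2 uncalled genes of smallest p, and for each member the 2 genes most like it; 2 list genes that met this rule are not reported here. Alternatives covered scaling, filter, pseudocount, kit term, each kit, library weights, body weight and each library left out. Leaving out Young replicate 1 with Old replicate 5, the RNeasy libraries without Old replicate 14, the long-gene correction of Apob and the kit comparison were chosen after seeing the data. The pair of kits is named per the labels.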

Additional observations from a re-analysis of the deposited data

Results flagged for a closer look

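Of 30 groups of libraries checked, which were the members and the 5 called list genes in each age, 3 had a library far from the others. The check was Dixon's test, the gap to the nearest library over the range, with limits of 0.466 for 10 and 0.526 for 8 libraries. Chance gives about 1 in 20 for normally distributed values, whereas these were scaled TPM and not log2 levels. Nr0b2 in Young livers, at 0.532, was just past its limit. Apob in Young livers had its lowest value, 1739 scaled TPM, in Young replicate 1, and the next lowest was 3390. Apoa4 in Old livers had its highest value, 15359.5 scaled TPM, in Old replicate 14, and the next highest was 2369. Nr0b2 in Young livers had its highest value, 56.5 scaled TPM, in Young replicate 3, and the next highest was 30.3.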

How the results depend on the processing

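No paired analysis was possible because no replicate number occurs in both ages. Of all genes, 339 were higher and 343 lower in Old; the counts were 56 and 38 in AllPrep alone, 5 and 6 in RNeasy alone, 25 and 24 in RNeasy without Old replicate 14, 704 and 697 with library weights, 3 and 0 with body weight as a term, and 200 and 228 without Young replicate 1 and Old replicate 5. Without a scaling factor they were 341 and 188. Body weights did not overlap between ages (35.1 to 55.0 g in Old, 26.6 to 34.8 g in Young), so age and weight cannot be told apart in the fit with both. Leaving out single libraries gave 176 to 500 higher and 184 to 464 lower, with shifts past 1.5 times for Young replicates 1, 2, 4, 10, 11 and 12 and Old replicates 7, 9 and 15. List genes, 2 higher and 3 lower, came to 0 and 0 in either kit alone, in RNeasy without Old replicate 14 and with body weight; 1 was higher without a filter, and 1 higher without Young replicate 1 and Old replicate 5; 1 was lower without scaling and 7 with library weights; single libraries left out gave 1 to 2 higher and 1 to 5 lower. Members called lower came to 0 to 1 (Apoa5 without Old replicate 6). Members that differed between kits, 2, came to 1 without scaling and in either age alone, and to 1 to 3 with single libraries left out.

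No uncalled fold that turned sign passed the test. Without scaling Apob was 0.056, Apoa1 0.015, Apoa2 0.051 and Apoc3 0.025, with a median over all genes of 0.05. In AllPrep alone Apob was 0.043 and Apoc2 -0.086. In RNeasy alone Apoa1 was 0.16, Apoc1 0.046, Apoc3 0.12 and Rbm47 -0.0035; without Old replicate 14 these libraries gave Mttp 0.026, Apoa1 0.046, Apoa2 0.10, Apoc1 0.10, Apoc3 0.069, Pltp -0.0052 and Lpl -0.16. With library weights Apoa2 was 0.074, Apoc1 0.038 and Apoc3 0.021, and without a kit term Apoa2 was 0.045. With body weight Apoa1 was 0.39, Apoc1 0.051, Apoc3 0.11, Apoc4 0.017, Apol7a -0.13 and Rbm47 -0.30. Without Young replicate 1 and Old replicate 5 Apoc3 was 0.016. Single libraries left out gave Apob -0.16 to 0.090, Apoa1 -0.11 to 0.013, Apoa2 -0.040 to 0.057 and Apoc3 -0.068 to 0.027. Without scaling, r was -0.20 for Apoa4 with Apoa5 and -0.15 for Apoa1 with Apoa2 in Young, and -0.74 for Apoa1 with Apoa2 in Old, which then passed (adjusted p = 0.048). The r of Apoa4 with Apoa5 in Old was 0.58 without Old replicate 14. The cause of these shifts was not tested. Angptl8 and Mylip lost their calls in either kit alone. With body weight their folds were 1.45 and -0.13 (adjusted p = 0.168 and 0.617), against 1.37 and -0.32, in a fit where age and weight cannot be told apart. Depth, at 180 to 947 reads a library, limits Apoc2, and so does the unknown treatment of reads shared with Gm44805.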
